A study of Mus musculus with 9 samples.

Results

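The heat shock chaperone genes described here are 10 named genes whose products fold proteins or keep them from aggregating: Hspa1a, Hspa1b, Hsph1, Dnajb1, Hspa8, Hsp90aa1, Hsp90ab1, Bag3, Hspd1 and Hspe1. They were chosen by name, and all 10 were among the 12003 Ensembl gene identifiers measured. Hspa1a and Hspa1b encode nearly identical products, so reads from either gene cannot be told apart with certainty. Their values were summed, which left 9 values per library for the 10 genes.

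RNA was sequenced from mouse alveolar macrophages, the resident phagocytes of the lung air spaces, after bronchoalveolar lavage and selection on magnetic beads against CD11c. Each library came from a pool of 5 to 7 untreated mice of matched sex, aged 8 to 12 weeks, on the C57BL/6 background. Floxed controls, Vhl(flox/flox) with CD11c (+/+), carried loxP sites in both Vhl alleles and no Cre recombinase. Cre controls, Vhl(+/+) with CD11c (cre/+), carried Cre and intact Vhl alleles. Vhl knockouts, Vhl(flox/flox) with CD11c (cre/+), carried both. There were 3 pools of each genotype. CD11c drives Cre in dendritic cells as well as in alveolar macrophages, and the beads against CD11c retain both kinds of cell. Vhl encodes the substrate receptor of the ubiquitin ligase that marks hypoxia-inducible factors for degradation when oxygen is present.

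Heat shock factors, with HSF1 as the main one under stress, bind inverted repeats of the bases GAA and switch on chaperone genes when unfolded proteins build up. The HSP70 proteins bind exposed hydrophobic stretches in cycles of ATP hydrolysis. J-domain proteins start each cycle, and nucleotide exchange factors end it. HSP90 takes over clients such as kinases and steroid receptors, and HSP60 with its lid HSP10 folds proteins inside mitochondria. Hspa1a and Hspa1b are the strongly inducible HSP70 genes, while Hspa8 and Hsp90ab1 encode the forms that most cells make at all times.

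The inducible HSP70 genes had the largest differences between genotypes and are near copies of each other, so their upstream sequences are shown first. RefSeq windows on GRCm38.p6, running from 250 bases before to 50 bases after the annotated start, were found for 7 of the 10 genes. The stretches below lie 220 to 81 bases before each start on the minus strand, at chr17:34972237-34972376 for Hspa1a and chr17:34959319-34959458 for Hspa1b, upstream of the annotated transcripts. Capitals mark the inverted pair of heat shock units that matched exactly.
Hspa1a: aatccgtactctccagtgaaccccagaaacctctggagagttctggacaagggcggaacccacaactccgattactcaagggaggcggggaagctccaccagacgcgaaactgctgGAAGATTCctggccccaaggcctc
Hspa1b: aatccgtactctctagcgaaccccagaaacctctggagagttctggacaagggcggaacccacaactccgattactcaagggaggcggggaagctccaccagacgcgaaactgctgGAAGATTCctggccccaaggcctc
Over the 300-base windows, 296 bases were identical. The 4 differences, with the Hspa1a base first and positions counted from the start site, were C-207T, T-204C, T-2G and C26T, and 2 of them lie in the printed stretches.

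Hspd1 and Hspe1 are read in opposite directions. The stretch between a RefSeq start of Hspd1 and that of Hspe1 held overlapping heat shock elements of 3 units each. Another Hspd1 window, chr1:55088194-55088493, belongs to a start inside Hspe1 and held none. The same bases, chr1:55088055-55088080, are printed for each gene on its own strand because they show that these genes share their element. Capitals mark the run of units, which GENCODE places in an untranslated exon of an Hspd1 transcript.
Hspd1: ggccTTCCGGAAGGTTCTAGAAcgga
Hspe1: tccgTTCTAGAACCTTCCGGAAggcc
Hsph1, also with a 3-unit element, had it 37 to 49 bases after a RefSeq start, at chr5:149636288-149636300 on the minus strand, inside an annotated untranslated exon. Counted from another RefSeq start of Hsph1, the element began at base 16.
Hsph1: TTCTGGAAAGTTC
The 3-unit motif, GAANNTTCNNGAA or TTCNNGAANNTTC on either strand, was present in 0.603% of 32851 RefSeq windows, or 0.662% of 27025 genes. It was found for Hspd1, Hspe1 and Hsph1, where Hspd1 and Hspe1 matched through the same bases. Only exact matches were counted. Runs with an imperfect unit, such as gaaactgctg just before the marked pair of Hspa1a and Hspa1b, were left out. The longer motif's absence from those windows therefore does not mean that they lack a longer element. The 2-unit motif, GAANNTTC or TTCNNGAA, lies inside the longer one. This shorter motif was present in 15.1% of windows (17.0% of genes) and for 6 of the 7 genes, Dnajb1 being the other. The core of the hypoxia response element, ACGTG or GCGTG on either strand, was present in 43.8% of windows (46.7% of genes). It was found for Bag3, Dnajb1, Hspd1, Hspe1 and Hsph1, and its letters did not occur in the Hspa1a and Hspa1b windows. A match describes the letters only and is not evidence of binding.

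The libraries held 18201116 to 25861174 reads, and all values below are normalized reads, a read count scaled to library size and not to gene length. In these units 1 sequenced read equalled 0.0400 to 0.0565 normalized reads. Vhl itself averaged 18.1 ± 3.05 (SD, n = 3) in floxed controls, 23.7 ± 1.69 in Cre controls and 2.23 ± 0.261 in knockouts, so the knockout libraries held 10.6% of the mean of both controls. All 15 alveolar macrophage markers were measured, with 5 of 15 called higher and 4 lower against both controls (19.7% of all rows tested were called higher and 20.2% lower). Their summed level was 28999 to 33928 in controls and 38681 to 51276 in knockouts. Chil3, a chitinase-like protein of alveolar macrophages, gave 15661 to 20336 of it in controls and 25431 to 38057 in knockouts, and without Chil3 the sums overlapped, at 11966 to 15954 and 13219 to 14193. Genes were compared with limma on log2(value + 1), a scale that understates the change of low genes, and a gene was called at a Benjamini-Hochberg adjusted p under 0.05. The spread between pools is what these p-values measure, and the labels do not say whether pools were prepared on separate days.

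Inducible HSP70 RNA fell in the Vhl knockouts, and none of the other 8 differed by as much. Hspa1a and Hspa1b together gave 88.2, 49.2 and 74.9 normalized reads in the 3 floxed controls. The 3 Cre controls gave 43.3, 220.2 and 166.7, and the 3 knockouts 11.5, 20.6 and 8.84. The 3 knockout values were all under the lowest of the 6 controls, although the controls themselves spanned 5.09-fold. Means were 70.8 ± 19.8 (SD, n = 3) in floxed controls, 143.4 ± 90.7 in Cre controls and 13.7 ± 6.15 in knockouts. The knockout mean was 12.7% of the mean of the controls. On the log2(value + 1) scale the knockouts were lower than both controls by 6.55-fold, a log2 difference of -2.71 (SE 0.459, limma adjusted p = 0.00112). The 95% interval of that difference ran from -3.74 to -1.69. Against floxed controls alone the log2 difference was -2.33 (SE 0.530, limma adjusted p = 0.00723), and against Cre controls alone it was -3.09 (limma adjusted p = 0.00158). Without Cre control 1, the lowest control, the difference from Cre controls was -3.80 (limma adjusted p = 4.29e-05). In bulk samples, fewer cells of a type that makes this RNA and less of it per cell cannot be told apart.

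Each gene of the pair followed the sum. Hspa1a (ENSMUSG00000091971, GRCm38 chr17:34969190-34972156, minus strand) gave 34.8, 25.4 and 32.6 normalized reads in floxed controls, 21.3, 103.6 and 74.3 in Cre controls, and 4.68, 8.58 and 4.24 in knockouts. Hspa1b (ENSMUSG00000090877, chr17:34956436-34959238, minus strand) gave 53.4, 23.8 and 42.4, then 22.0, 116.6 and 92.4, then 6.86, 12.0 and 4.60. For each gene the highest knockout was under the lowest control. Hspa1a made up 39.5% to 51.6% of the pair, a division that rests on how reads matching both genes were assigned. The lowest knockout values still rested on 106 reads for Hspa1a and 115 for Hspa1b.

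**Figure D1:**
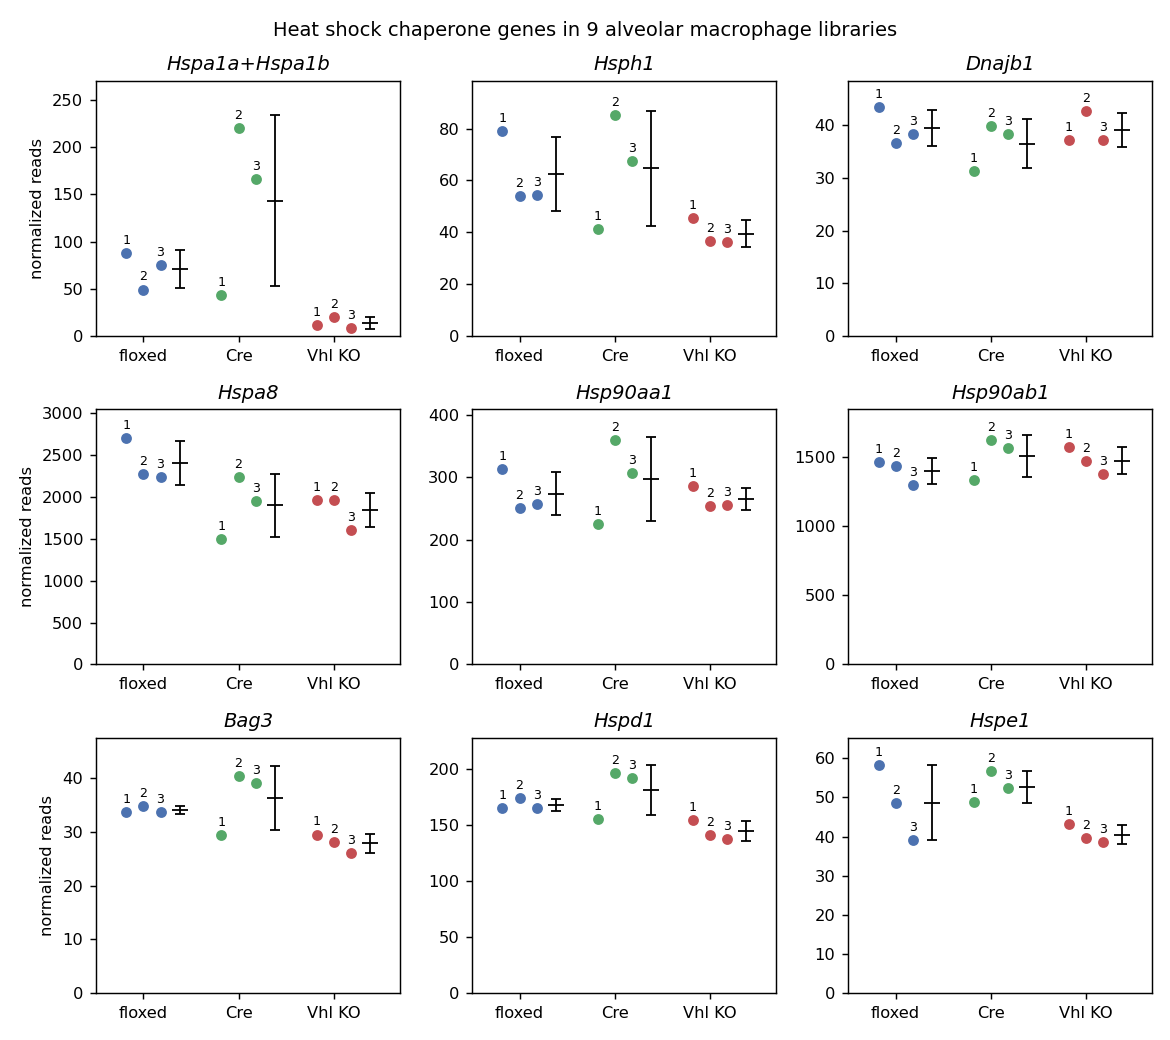
Normalized reads (linear axes from 0) of the summed Hspa1a and Hspa1b and of the other 8 chaperone genes, with a numbered point for each of the 9 libraries and a bar for each genotype's mean and SD (n = 3). The 3 knockout libraries sit between 8.84 and 20.6 for the summed pair, below all 6 controls, which sit between 43.3 and 220.2.

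Hsph1, Bag3, Dnajb1 and Hspa8 work with or beside the inducible proteins. Hsph1 (ENSMUSG00000029657, chr5:149614287-149636376), the HSP110 nucleotide exchange factor, gave 79.0, 53.9 and 54.5 normalized reads in floxed controls, 41.3, 85.2 and 67.4 in Cre controls, and 45.6, 36.7 and 36.2 in knockouts. The knockouts lay below all floxed controls and overlapped the Cre controls through Cre control 1. Hsph1 fell against both controls by 0.64 on the log2 scale (SE 0.207, limma adjusted p = 0.0327), and the knockout mean was 62.1% of the control mean. That call was lost without Cre control 2, Cre control 3, knockout 2 or knockout 3 (limma adjusted p = 0.0511, 0.0650, 0.110 and 0.116). Against floxed controls alone the log2 difference was -0.63 (limma adjusted p = 0.0660), and against Cre controls alone -0.64 (limma adjusted p = 0.0622).

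Bag3 (ENSMUSG00000030847, chr7:128523616-128546981), which links HSP70 clients to autophagy, gave 33.6, 34.9 and 33.7 normalized reads in floxed controls. Cre controls gave 29.5, 40.4 and 39.2, and knockouts 29.5, 28.2 and 26.0. Knockouts and controls overlapped only because Cre control 1, at 29.45, lay just under knockout 1, at 29.51. Bag3 fell against both controls by 0.32 (SE 0.0957, limma adjusted p = 0.0233) and against Cre controls by 0.36 (limma adjusted p = 0.0309). Against floxed controls the log2 difference was -0.28 (limma adjusted p = 0.0756). The call against both controls was lost without Cre control 3, knockout 2 or knockout 3 (limma adjusted p = 0.0510, 0.0647 and 0.104).

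Dnajb1 (ENSMUSG00000005483, chr8:83608193-83612653), the HSP40 J-domain partner of HSP70 and a standard heat shock target, showed no such difference. It gave 43.4, 36.8 and 38.4 normalized reads in floxed controls, 31.4, 40.0 and 38.4 in Cre controls, and 37.3, 42.8 and 37.3 in knockouts. The knockouts lay within the range of the controls, and the log2 difference from both controls was 0.04 (SE 0.0905, limma adjusted p = 0.742), with a 95% interval from -0.16 to 0.24.

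Hspa8 (ENSMUSG00000015656, chr9:40800984-40810087), the constitutive HSC70, gave 2705, 2269 and 2238 normalized reads in floxed controls, 1499, 2240 and 1953 in Cre controls, and 1958, 1966 and 1607 in knockouts. Each knockout was below each floxed control, yet Cre control 1 was the lowest of all 9 libraries. The log2 difference was -0.21 from both controls (limma adjusted p = 0.246) and -0.38 from floxed controls (limma adjusted p = 0.0779). The ratio of Hspa8 to summed Hspa1a and Hspa1b was 29.9 to 46.1 in floxed controls, 10.2 to 34.7 in Cre controls and 95.5 to 181.8 in knockouts. Knockout libraries thus had the highest ratios of the constitutive to the inducible RNA, with no overlap.

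The cytosolic HSP90 genes were not called in any of the 4 comparisons. Hsp90aa1 (ENSMUSG00000021270, chr12:110690605-110702728), the inducible form, averaged 273.7 ± 34.6 (SD, n = 3) normalized reads in floxed controls, 296.7 ± 67.5 in Cre controls and 264.9 ± 18.3 in knockouts. Its log2 difference from both controls was -0.09 (limma adjusted p = 0.624). Against Cre controls it was -0.14, and with number 1 of every genotype left out -0.38 (limma adjusted p = 0.0105). Hsp90ab1 (ENSMUSG00000023944, chr17:45567775-45573271), the constitutive form, averaged 1397 ± 90.8, 1505 ± 151 and 1472 ± 98.9, with a log2 difference of 0.02 (limma adjusted p = 0.856). Groups overlapped for both genes, and the ratio of Hsp90ab1 to Hsp90aa1 stayed between 4.51 and 5.93 in all 9 libraries.

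The mitochondrial chaperonin genes fell slightly. Hspd1 (ENSMUSG00000025980, chr1:55077835-55088243), encoding HSP60, gave 164.9, 173.8 and 165.3 normalized reads in floxed controls, 155.5, 196.5 and 191.9 in Cre controls, and 154.7, 141.1 and 138.0 in knockouts. The highest knockout lay just below the lowest control, so the groups did not overlap. Hspd1 fell against both controls by 0.27 (SE 0.0767, limma adjusted p = 0.0192) and against Cre controls by 0.32 (limma adjusted p = 0.0198), while the log2 difference from floxed controls was -0.22 (limma adjusted p = 0.0858). Without knockout 2 or knockout 3 the call against both controls was lost (limma adjusted p = 0.0748 and 0.0866).

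Hspe1 (ENSMUSG00000073676, chr1:55088132-55091307), encoding the HSP10 lid, gave 58.3, 48.5 and 39.1 normalized reads in floxed controls, 48.8, 56.9 and 52.5 in Cre controls, and 43.2, 39.7 and 38.5 in knockouts. The knockouts lay below all Cre controls and overlapped floxed control 3. Hspe1 fell against both controls by 0.31 (SE 0.109, limma adjusted p = 0.0466) and against Cre controls by 0.37 (limma adjusted p = 0.0443). Against floxed controls the log2 difference was -0.24 (limma adjusted p = 0.164). The call against both controls was lost without floxed control 2, Cre control 2, Cre control 3 or any knockout (limma adjusted p = 0.0636 to 0.154). The GENCODE models of Hspd1 and Hspe1 overlap by 112 bases on opposite strands. The sources used here do not give the strand setting of the counting, so reads from the shared bases cannot be assigned to 1 gene.

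Over the 9 values, 5 were called lower and 0 higher in knockouts against both controls, where 20.2% of all 12002 rows tested were called lower and 19.7% higher. The median log2 difference was -0.27, against -0.0021 over all rows. All 3 knockouts lay below all 6 controls for 2 of the 9, the summed HSP70 pair and Hspd1, where 18.5% of all rows did so. Against floxed controls alone 1 was called lower, the HSP70 pair (16.8% of all rows lower, 17.5% higher). That count was 5 without normalization factors, in a fit of only those groups and without Cre control 1, as Hsph1, Hspa8, Bag3 and Hspd1 then passed. It was 3 with DESeq2, which called Hsph1 and Hspa8, and 2 without floxed control 3 or Cre control 2. Against Cre controls alone 4 were called lower, the HSP70 pair, Bag3, Hspd1 and Hspe1 (17.7% lower, 16.3% higher). These comparisons share libraries, and whether a chaperone gene's knockout difference depended on the control used is the comparison of Cre with floxed controls. There limma called 0 of 9, where it called 0.0667% of all rows higher and 0.1% lower. One of the 9, Hspa8, had an unadjusted p under 0.05 (log2 difference -0.36, limma adjusted p = 0.624), and edgeR and DESeq2 also called 0. The count of 5 against both controls was 3 without Cre control 2, 2 without Cre control 3, and 1 without knockout 2 or knockout 3. The count of 4 against Cre controls was 1 when any of these 4 libraries was left out.

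**Figure D2:**
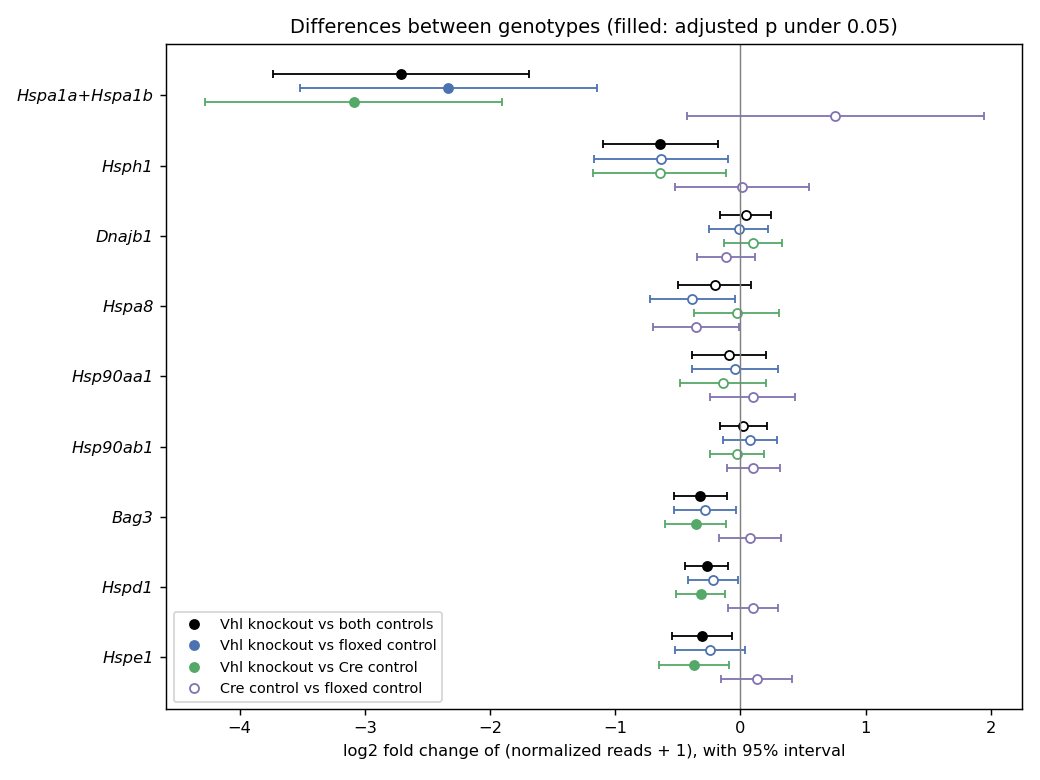
Log2 differences on the log2(value + 1) scale of each chaperone gene in the 4 comparisons, with bars for 95% intervals, and with filled points for genes called and open points for those not called. Only the summed HSP70 pair is called in all 3 knockout comparisons, at -2.71, -2.33 and -3.09.

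Per kilobase of annotated exon, Hspa8 and Hsp90ab1 were the most abundant members in controls, at 500.0 ± 93.0 (SD, n = 6) and 483.8 ± 42.1 normalized reads, and did not differ beyond their spread. Hsp90aa1 (72.6 ± 12.6) and Hspd1 (66.1 ± 6.15) came next and also overlapped within their SD, ahead of Hspe1 (34.4 ± 4.71). Hspa1b (20.8 ± 13.7) and Hspa1a (16.4 ± 11.1) ranked 6 and 7 of the 10 genes in controls, with a spread wide enough to cover Bag3 (13.7 ± 1.57), Dnajb1 (11.9 ± 1.24) and Hsph1 (8.75 ± 2.30). In knockouts Hspa1b (2.79 ± 1.35, n = 3) and Hspa1a (1.97 ± 0.805) ranked 9 and 10, below Hsph1 (5.44 ± 0.728).

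Library by library, the members ranked the Cre controls alike. Cre control 1 was the lowest and Cre control 2 the highest of the 3 Cre controls for all 9 values. Among the other chaperone lists, described below, 5 had sums in that order. They were the cytosolic HSP70 system, HSP90 cochaperones, TRiC with prefoldin, and the mitochondrial and endoplasmic reticulum chaperones. The sums of heat shock factors with their regulators and of small heat shock proteins were instead highest in Cre control 1. Floxed control 1 was the highest floxed library for 7 of 9, and knockout 3 the lowest knockout for 7 of 9. The share of all rows with any of these orders was not computed, so the orders are not shown to be particular to the members. The 10 genes made up 0.344% of normalized reads in Cre control 1 and 0.490% in Cre control 2, and all 9 libraries lay between 0.341% and 0.492%. The gap between these Cre controls was therefore nearly as wide as the whole range.

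The genes whose profile over the 9 libraries was nearest to the HSP70 pair were Ccr7, Slc7a11, Adcy6, Fscn1 and Cacnb3. Likeness was the root mean square difference of centred log2 values, 0.372 for Ccr7 to 0.506 for Cacnb3, among 9819 genes with a mean of at least 5. Ccr7, the chemokine receptor that guides dendritic cells to lymph nodes, gave 42.4, 19.1 and 25.4 normalized reads in floxed controls, 26.0, 69.8 and 61.6 in Cre controls, and 3.30, 4.90 and 4.72 in knockouts. Slc7a11, the cystine transporter, gave 143.5, 150.7 and 115.7, then 92.2, 272.5 and 222.5, then 28.5, 24.5 and 19.2. For both genes the order of the 3 Cre controls was that of the HSP70 pair. In floxed controls only Ccr7 had the pair's order, and in knockouts neither gene did. The genes were picked by likeness over these same 9 libraries, so a shared order is not separate evidence. The nearest chaperone member was Hsph1, ranked 291 (1.13), then Bag3 at 945.

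**Figure D3:**
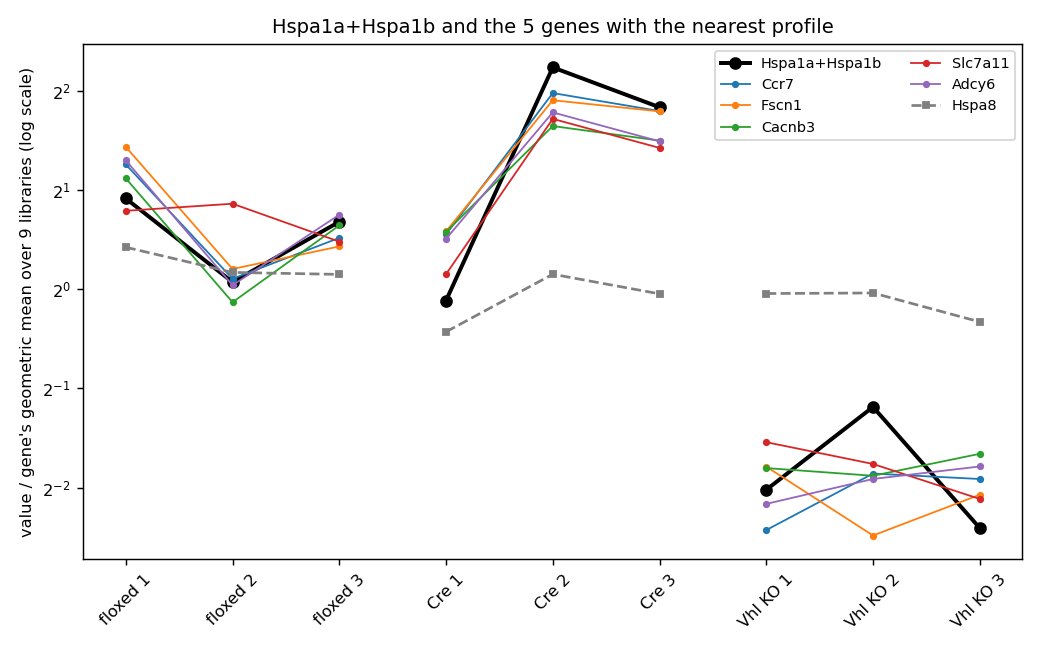
Normalized reads divided by each gene's geometric mean (log axis) in the 9 libraries, for the summed HSP70 pair, the 5 genes of nearest profile and, in grey, Hspa8. Lines only guide the eye; the profiles of the pair and the 5 genes peak in Cre control 2 and are low in the 3 knockouts.

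Ccr7, Fscn1 and Cacnb3 were found by their likeness to the HSP70 pair. They belong to a list of 15 dendritic cell markers that also fell in knockouts. Between Cre and floxed controls the list's median log2 difference was 0.014, against 0.76 for the HSP70 pair, with no call in either. Ccr7, Fscn1 and Cacnb3, picked by likeness over these same libraries, stood at 0.79, 0.72 and 0.65 in that comparison. All 15 of the list were measured, 15 were called lower against both controls with limma (20.2% of all rows), and none was at 0 in any library. Xcr1, Clec9a and Cd209a averaged 0.590, 0.656 and 0.531 in knockouts, under the 0.962 that 3 or more libraries reach in every row. They were thus measured only through the controls, where they are higher, and they are among the 15 called lower. For 14 of the 15 the knockouts lay below all controls (18.5% of all rows). The summed level of the list was 166.6 to 322.6 normalized reads in floxed controls, 204.7 to 410.0 in Cre controls and 84.7 to 95.3 in knockouts. Per 100 normalized reads of these markers, the HSP70 pair stood at 27.3, 29.5 and 33.7 in floxed controls, 21.1, 53.7 and 46.6 in Cre controls, and 13.6, 21.6 and 9.63 in knockouts. Knockout 2 then overlapped Cre control 1. Hsph1, set against the same markers, was higher in knockouts, at 53.9, 38.5 and 39.4 per 100, than in controls, at 18.9 to 32.4. The part of these markers in the HSP70 and Hsph1 results was not tested.

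Immediate early genes, which rise during tissue handling, were also counted. Of 20 measured, 6 (30%) were called higher and 2 (10%) lower against both controls (19.7% of all rows higher, 20.2% lower), with a median log2 difference of 0.32. Their summed level was 1875 to 2042 normalized reads in floxed controls, 1547 to 1715 in Cre controls and 1961 to 2682 in knockouts. Ier3 averaged 12.8, 6.15 and 82.2 in the 3 genotypes and was called higher, as was Jund, while Egr2 was called lower. Fos and Klf6 were not called. Neutrophil markers, 6 measured, summed to 199.6 to 666.2, 94.3 to 324.5 and 137.5 to 404.2. The highest sum of each genotype was that of its library number 1, and the other libraries lay between 94.3 and 209.8. The part of either list in the chaperone results was not tested.

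Regulators and partners of the chaperones were counted in the same comparison, where 19.7% of all rows were called higher and 20.2% lower. Of 6 heat shock factors and their regulators, Hsf2 was called lower (15.1, 17.1 and 11.2 normalized reads in floxed, Cre and knockout means, limma adjusted p = 0.0068), and 5, with Hsf1, Hsbp1 and Ier5 among them, were not called. Hsf1 averaged 27.1, 25.4 and 28.9. Of 23 other genes of the cytosolic HSP70 system, 8 (34.8%) were called higher, 6 (26.1%) lower and 9 were not called. Hspa12b, a distant HSP70 relative of endothelium, averaged 0.415, 0.223 and 8.77, and the HSP70 cochaperone Bag2 0.753, 1.01 and 3.15, both called higher. The Hspa12b controls lay at 0.170 to 0.652, under the 0.962 that 3 or more libraries reach in every row. Hspa12b was thus measured only through the knockouts, where it is high, and it is among the 8 called higher. The ribosome-bound J-domain protein Dnajc2 averaged 50.9, 54.8 and 42.6 and was called lower. St13 and Dnaja2 were not called.

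Of 19 HSP90 cochaperones, 1 was called higher and 4 (21.1%) lower, a share near that of all rows called lower (20.2%). Fkbp8, an immunophilin of mitochondrial membranes, averaged 144.0, 143.8 and 178.9 normalized reads in floxed, Cre and knockout libraries, and was the gene called higher. Cacybp averaged 69.7, 76.9 and 53.5 and Nudcd2 23.5, 25.2 and 17.4, both called lower. Cdc37, the kinase adaptor, and Ptges3, the p23 cochaperone, were not called. Of 14 subunits of the TRiC chaperonin and prefoldin, Pfdn5 was called higher, 3 (21.4%, against 20.2% of all rows) were called lower with Cct3 and Cct8 among them, and 10 were not called, such as Cct4 and Cct5. Only 2 of 10 genes listed under small heat shock proteins were measured, Hspb11 called higher and Hspb6 not called. Hspb11 was low, at 1.70 to 3.48 normalized reads over all libraries, and whether its product acts as a chaperone was not tested.

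Mitochondrial chaperones and proteases other than Hspd1 and Hspe1 had 4 of 15 (26.7%) called higher and 0 lower (19.7% of all rows higher, 20.2% lower). Lonp1, the matrix protease, averaged 60.6, 60.8 and 87.0 normalized reads, and Yme1l1 and Clpx were also called higher. The mitochondrial HSP70 Hspa9 averaged 234.1, 254.7 and 254.4 and was not called, nor was Trap1, the mitochondrial HSP90. Of 16 chaperones of the endoplasmic reticulum, 1 was called higher (Sil1) and 3 (18.8%, against 20.2% of all rows) lower, with Sdf2l1 (80.6, 83.2 and 52.8) and Dnajb11 (119.4, 132.8 and 97.7) among them. Calr and Hsp90b1 were not called.

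**Figure D4:**
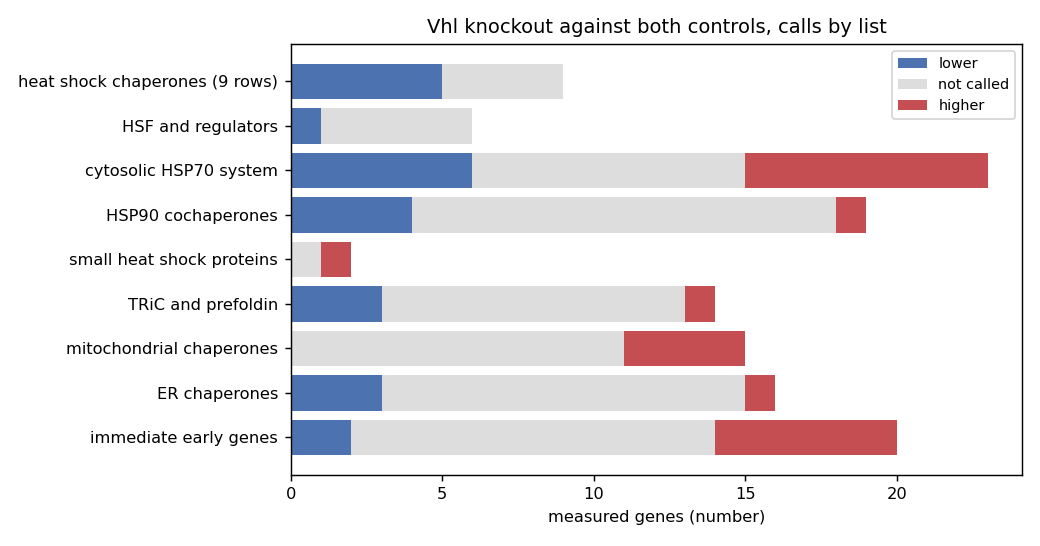
Number of measured genes of each chaperone list and of the immediate early list (horizontal axis) called lower (blue), not called (grey) or called higher (red) with limma in knockouts against both controls. The heat shock chaperones have 5 of 9 called lower and 0 higher, the other mitochondrial chaperones 4 of 15 higher and 0 lower, and all rows tested 19.7% higher and 20.2% lower.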

How the data were processed

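Poly(A) RNA of 9 libraries was sequenced as single reads of 61 bases, from RNA with an integrity value above 8, per the labels' protocols. CASAVA 1.8.2, cutadapt 1.3, RSEM 1.2.3 and the GRCm38 build are named, without roles or order, per the submitters' processing notes. Nothing used here states the annotation, the strand setting or what followed RSEM. In the deposited table the authors give a scaled signal per gene and library, whose unit was found from its values. Each value was a whole number of reads times 1 factor per library (100% of values within 0.01 read), and is called a normalized read here. In every row 3 or more libraries reach 0.962, so lower genes are not analysed here. A value of 0 would allow up to 3 reads, which covers counting error only. Reads that match several genes may have been divided among them, so Hspa1a and Hspa1b were summed. All per-sample columns were used (0 left out).

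Groups came from the genotype label. Values were transformed as log2(value + 1), with no filter, and fitted with limma 3.58.1 in R 4.3.3, with 1 mean per genotype over all 9 libraries, empirical Bayes moderation and an intensity trend. P-values are two-sided and adjusted over all 12002 rows. The fit was tested on simulated data. Alternatives were a pseudocount of 0.25, a mean of at least 5, no normalization factor, edgeR 4.0.16 and DESeq2 1.42.0 on recovered reads, only the groups compared, a replicate block, and each library left out in turn. A further one, added after seeing the data, left out number 1 of every genotype, since those 3 libraries lay apart on a principal component. Symbols and loci came from GENCODE M21 (GRCm38), which named 11935 identifiers and left 68 unnamed, and exon lengths are unions of its exons. Promoter windows came from RefSeq.

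The members and lists were chosen with earlier results of these data known. From each other list the text names up to 3 called genes, taken by smallest adjusted p, and up to 2 uncalled genes with the highest mean. It also names the 5 genes of nearest profile, and Hsf1 and Chil3, which were chosen after their values were seen.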

Additional observations from a re-analysis of the deposited data

How the results depend on the processing

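The summed HSP70 pair was called lower in all 3 knockout comparisons under every alternative tried, with log2 differences from -3.06 to -2.46 against both controls, -2.65 to -2.08 against floxed controls and -3.80 to -2.64 against Cre controls. The smaller differences were less stable. Over the chaperone genes and Vhl, 621 recomputed values kept their direction and call, 26 gained a call, 29 lost it and 30 changed sign. All values of Vhl, the deleted gene, are among the 621, so that count overstates how stable the chaperone genes were.

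Leaving out 1 library at a time gave 1 to 5 members called lower against both controls, 1 to 5 against floxed controls and 1 to 5 against Cre controls. The members called higher stayed at 0, as did calls in either direction between the controls. Against floxed controls, members called lower numbered 5 without normalization factors, 3 with DESeq2, 5 in a fit of only the groups compared, 4 with number 1 of every genotype left out and 2 with Hspa1a and Hspa1b kept apart. Over all genes, leaving out 1 library gave 1827 to 2435 called higher and 1820 to 2538 lower against both controls. The ranges were 1610 to 2077 and 1488 to 2023 against floxed controls, 1538 to 2139 and 1494 to 2296 against Cre controls, and 6 to 16 and 7 to 17 between the controls. Between the controls the main counts were 8 higher and 12 lower. With a mean of at least 5, 6 were lower. DESeq2 gave 25 higher and 49 lower, and only the groups compared 5 higher and 6 lower. The replicate block gave 59 lower, and leaving out number 1 of every genotype 71 higher and 75 lower. The cause of these moves was not tested. Fitting only the groups compared changes nothing against both controls, which uses all 9 libraries.

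Deviations of same-numbered libraries correlated at 0.203 to 0.524 for number 1, 0.0149 to 0.222 for number 2 and -0.094 to 0.159 for number 3. The numbers were not taken as pairs in the main fit, and the replicate block was an alternative. With the replicate block, members called lower were 5 against both controls, 1 against floxed controls and 4 against Cre controls, as without it, and 0 between the controls.

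The sign changes concerned differences that were not called before or after, and their cause was not tested. Without normalization factors Dnajb1 was at -0.00535 and Hsp90ab1 at -0.0267 against both controls, and Hsph1 at -0.0309 between the controls. With number 1 of every genotype left out, Hsp90ab1 was at -0.0512 against both controls, Dnajb1 at 0.0869 and Hsp90aa1 at 0.00309 against floxed controls, and Dnajb1 at 0.0590 between the controls. Leaving out 1 library at a time moved the log2 difference from both controls between -0.0215 and 0.0770 for Dnajb1 and between -0.0262 and 0.0706 for Hsp90ab1. Against floxed controls the range was -0.0782 to 0.0544 for Dnajb1 and -0.101 to 0.0593 for Hsp90aa1. Against Cre controls it was -0.00462 to 0.166 for Dnajb1, -0.189 to 0.101 for Hspa8, -0.325 to 0.0115 for Hsp90aa1 and -0.114 to 0.0262 for Hsp90ab1. Between the controls it was -0.215 to 0.298 for Hsph1, -0.0152 to 0.266 for Hspe1, -0.0535 to 0.283 for Hsp90aa1 and -0.00456 to 0.218 for Bag3.

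With 3 pools per genotype and controls that spanned up to 5.09-fold for the HSP70 pair, small differences rest on few libraries. The lowest value of any member rested on 106 reads, and the effect of depth on the calls was not tested.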
